A study of Mus musculus with 6 samples.

Results

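The S100 family of small calcium-binding proteins was represented by 10 genes, S100a1, S100a4, S100a6, S100a8, S100a9, S100a10, S100a11, S100a13, S100a16 and S100b, chosen by symbol from 24411 genes in a table of mouse Achilles tendon transcripts. All 10 were in the table, and 9 had enough counts to be tested. The choice covers S100 genes of fibroblasts, muscle, neutrophils and nerve. Total RNA was taken from C57BL/6 mice aged 18 weeks, in 3 libraries of genotype Scx-Cre/Piezo1 GOF and 3 of genotype WT. The mutant (Piezo1 GOF) carried Scx-Cre, that is Cre under control of sequence from Scx, a transcription factor gene of tendon, together with a gain-of-function allele of Piezo1, whose product is a calcium-permeable channel opened by mechanical force. The Cre acts in cells of the Scx lineage, whereas the RNA came from the whole dissected tendon, so cells without the allele contribute to every value. The labels do not say whether the WT mice carried Cre, whether tendons were pooled or whether each sample is a separate animal. The p-values therefore reflect the spread among these samples alone, and that spread may be technical.

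S100 proteins are dimers in which each subunit carries a pair of EF-hands, the helix-loop-helix motif that holds a calcium ion. Calcium opens a groove on most of them that binds partner proteins such as annexins, myosin or channels, and S100a10 is known as the exception whose loops have lost calcium binding. Several members are also secreted and act on the receptors Ager and Tlr4. In connective tissue S100a4 is widely used as a marker of fibroblasts, S100a1 is known from striated muscle, S100b from Schwann cells, cartilage and fat, and S100a8 and S100a9 from neutrophils and monocytes, where they form calprotectin.

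Levels are given as CPM, which is counts scaled to a common library size after TMM normalisation. A log2 fold change is Piezo1 GOF over WT, followed by its standard error (SE). Each adjusted p comes from the quasi-likelihood test of edgeR, adjusted by Benjamini-Hochberg over all 13466 genes tested. Total counts lay between 8131514 and 12631661 in the Piezo1 GOF libraries and between 8519514 and 17180848 in the WT libraries. The mutated gene, Piezo1, was at 153 ± 24.7 CPM in Piezo1 GOF and 121 ± 21.1 CPM in WT (SD, n = 3 each), and since such an allele can act without altering transcript amount, this value is no check of the labels. The tendon label was checked against 12 tenocyte markers, all of them detected in every library, with a summed level of 39863 to 71544 CPM in Piezo1 GOF and 5493 to 18465 CPM in WT. Other cell types were present too. The 20 skeletal muscle markers summed to 25423 to 79446 CPM in Piezo1 GOF and 80925 to 181856 CPM in WT, and the 11 macrophage markers to 665 to 822 CPM and 181 to 281 CPM. The muscle sum lay above the tenocyte sum in every library but Piezo1 GOF replicate 2. In WT replicates 1 to 3 the muscle markers took 8.84%, 16.6% and 13.9% of all counts. The tenocyte markers took 2.02%, 0.501% and 1.17% there. WT replicate 1 stood apart by its Schwann cell markers, given with S100b. In these whole-tissue samples, fewer cells of a type and less RNA per cell cannot be told apart. The sums of the 9 cartilage markers in the table were 250 to 345 CPM in Piezo1 GOF and 160 to 184 CPM in WT. Those of 6 adipocyte markers (1247 to 1797 CPM and 1201 to 1981 CPM), 6 endothelial markers (432 to 650 CPM and 609 to 1250 CPM), 5 erythroid markers (20.97 to 71.8 CPM and 11.2 to 36.0 CPM) and 6 keratinocyte markers (7.02 to 12.04 CPM and 7.63 to 19.6 CPM) overlapped between the genotypes. By mean CPM the leading markers were Chad, Dcn and Col1a2 for tenocytes, Ttn, Acta1 and Neb for muscle, Lyz2, Csf1r and C1qc for macrophages, Pmp22 and Mbp for Schwann cells, and Lcn2, Itgam and Csf3r for neutrophils.

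No S100 gene passed the adjusted threshold of 0.05, but 8 of the 9 tested genes had positive fold changes, against 49.7% of all genes tested, and S100a8, S100a4, S100a6, S100a10, S100a13 and S100a16 lay above the WT libraries in all 3 Piezo1 GOF libraries. edgeR's quasi-likelihood test called 0 of the 9, where it called 2 genes higher over the whole table (0.0149% of those tested) and 0 lower (0%). Of the S100 genes, 7 were higher and 0 lower when p under 0.05 was left unadjusted, against 10.2% of all tested genes higher and 9.59% lower. DESeq2 called S100a4, S100a8, S100a10 and S100a13 higher, 4 genes, where it called 3.73% of all genes higher and 2.74% lower. The exact test of edgeR called the same 4 (3.36% of all genes higher and 1.76% lower), and limma voom called S100a4 alone (0.72% and 0.141%). Groups that did not overlap were found for 6 of 9 S100 genes, all higher, where 13.6% of all tested genes were higher and 12.1% lower without overlap. S100a8 passed the count filter only through the mutant libraries and so had to differ. Without it, 7 of 8 had positive fold changes and 5 of 8 did not overlap. By edgeR's quasi-likelihood test 6 of these 8 were higher and 0 lower at unadjusted p under 0.05. The calls of DESeq2 and of the exact test were then S100a4, S100a10 and S100a13. The median log2 fold change of the 9 was 1.10 (1.01 without S100a8), against -0.00448 over all tested genes. Such a rise was not particular to the S100 genes. All 12 tenocyte markers were positive and separate (median 1.92), as were 11 and 10 of 11 macrophage markers (median 1.70). Of 25 tested other calcium sensors and buffers with EF-hands, 20 were positive. All 20 muscle markers had negative fold changes. S100a9 was not tested for want of counts.

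**Figure D1:**
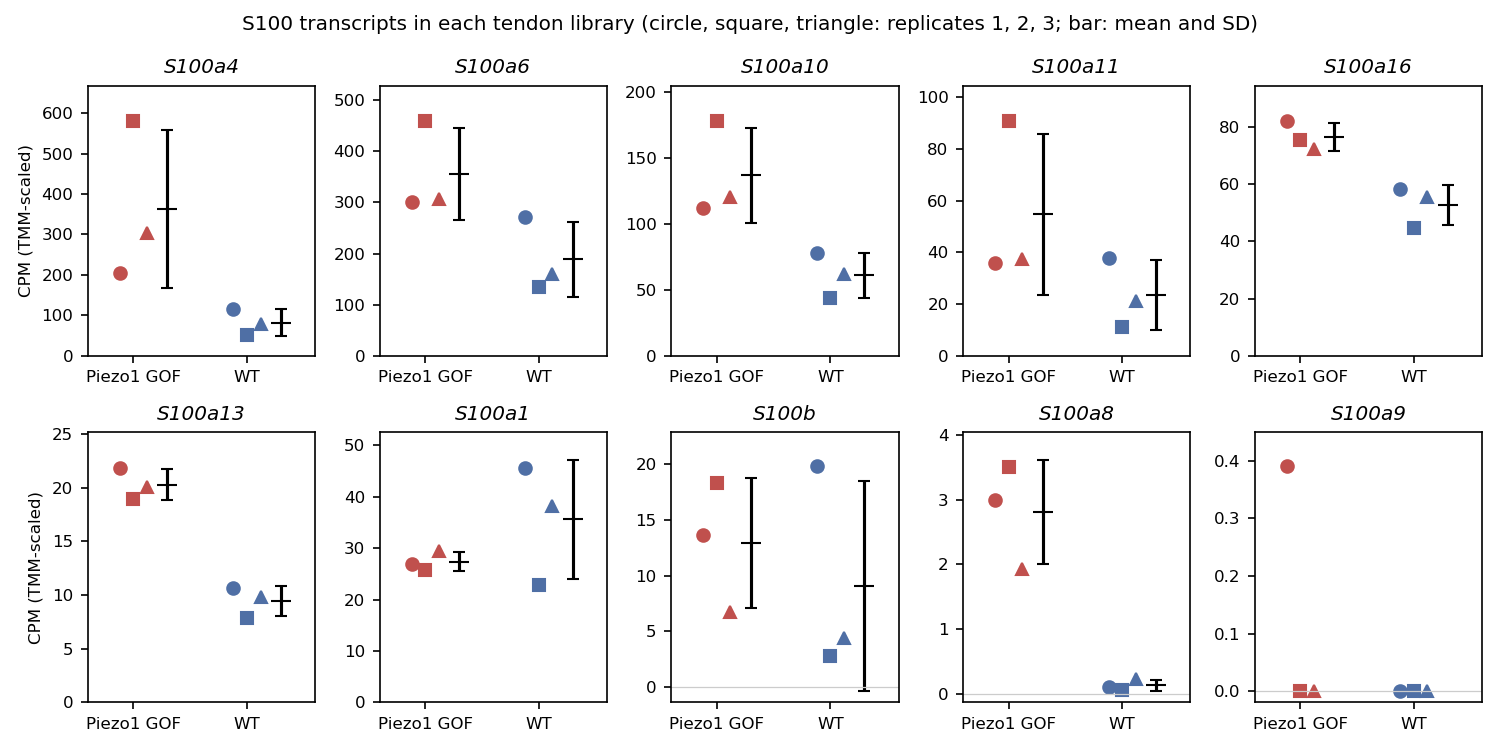
CPM of each S100 gene (vertical axis) in the 3 Piezo1 GOF libraries (left, red) and the 3 WT libraries (right, blue), with circles, squares and triangles for replicates 1, 2 and 3 and bars for mean and SD, left out for S100a9. S100a13 and S100a16 show tight, separate groups, S100a4 is spread widely among the mutant libraries, and S100b and S100a1 overlap.

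S100a4, which binds non-muscle myosin and marks fibroblasts and some macrophages, had the largest fold change after S100a8. It was at 204, 580 and 303 CPM in Piezo1 GOF replicates 1 to 3, against 117, 50.8 and 77.7 CPM in WT replicates 1 to 3. The groups did not overlap, and Piezo1 GOF replicate 2 lay far above the other mutant libraries. The log2 fold change was 2.15 ± 0.45 (4.43-fold, 95% interval 2.19 to 8.98; edgeR adjusted p = 0.0975), and it was 2.51 ± 0.48 without WT replicate 1 (edgeR adjusted p = 0.0486), past the threshold in a fit that called 1.32% of all genes higher and 0.332% lower. Over the other single libraries left out it lay between 1.66 and 2.43 (edgeR adjusted p = 0.0877 to 0.269), and S100a4 passed in none of those fits. In mm10, S100a4 (ENSMUSG00000001020.8; plus strand) spans 90603771 to 90606045 of chromosome 3, and 302 of its exon bases are shared with the same-strand readthrough gene Gm42674, which is not a row of the table, so its value is uncertain to that extent.

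Among the 9 S100 genes with a RefSeq promoter, S100a4 and S100a8 held the TATA box motif in the 250 bases before the start, and S100a10 was not searched. The motif TATAAA was looked for on the gene's strand in RefSeq promoters of GRCm38.p6, which gave 10 windows for these 9 genes, with S100a16 having a pair. It stood at bases -31 to -26 of S100a4 and -30 to -25 of S100a8, counted back from the RefSeq start. GENCODE begins S100a8 farther upstream, at 90668978, so the S100a8 motif lies inside the GENCODE span of that gene. Of 32851 promoter windows of that length, 7.59% held the motif anywhere and 2.63% within the last 50 bases. The 30 bases from -40 to -11 of both genes are shown so that the boxes can be compared, with the motif in capitals, at chr3:90603730-90603759 (plus strand) for S100a4 and chr3:90669031-90669060 (plus strand) for S100a8. The letters describe the window and say nothing of a factor that binds there.
S100a4: ctggcagggTATAAAtaggtcagattgttg
S100a8: agctttcctcTATAAAagcagctgacactt

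S100a6, or calcyclin, which binds the ubiquitin ligase adaptor Cacybp, was at 301, 458 and 306 CPM in Piezo1 GOF replicates 1 to 3, against 272, 134 and 161 CPM in WT replicates 1 to 3. The groups did not overlap, but WT replicate 1 came close to the lowest mutant library. The log2 fold change was 0.91 ± 0.34 (1.88-fold, 95% interval 1.11 to 3.18; edgeR adjusted p = 0.201). S100a6 (ENSMUSG00000001025.8) lies at 90612882 to 90624181 of chromosome 3 on the plus strand, next to S100a4 and S100a5. The ratio of S100a4 to S100a6 counts, which no scaling of library sizes can move, was 0.679, 1.26 and 0.992 in Piezo1 GOF replicates 1 to 3 and 0.430, 0.380 and 0.484 in WT replicates 1 to 3. The ratio was higher in every mutant library than in any WT library.

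S100a10, the light chain of the annexin Anxa2 tetramer at the plasma membrane, was at 112, 178 and 120 CPM in Piezo1 GOF replicates 1 to 3, against 77.7, 43.8 and 62.3 CPM in WT replicates 1 to 3. The groups did not overlap, and the log2 fold change was 1.16 ± 0.28 (2.24-fold, 95% interval 1.43 to 3.49; edgeR adjusted p = 0.120). Its partner Anxa2 was at 397, 491 and 435 CPM in Piezo1 GOF replicates 1 to 3 and 264, 96.8 and 152 CPM in WT replicates 1 to 3, and ordered the 6 libraries as S100a10 did. The log2 fold change of Anxa2 was 1.37 ± 0.37 (edgeR adjusted p = 0.139). The ratio of S100a10 to Anxa2 counts overlapped between the genotypes, at 0.282, 0.362 and 0.277 in Piezo1 GOF and 0.294, 0.452 and 0.409 in WT. S100a10 (ENSMUSG00000041959.14; plus strand, 93555080 to 93564643) and S100a11 form a pair on chromosome 3 that lies 2825 kb from the other 7 members there.

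S100a11, which binds the annexin Anxa1, was the member with high fold change whose groups overlapped. It was at 36.0, 90.7 and 37.3 CPM in Piezo1 GOF replicates 1 to 3 and 38.0, 11.2 and 21.04 CPM in WT replicates 1 to 3. WT replicate 1 lay above both of the lower mutant libraries, and Piezo1 GOF replicate 2 lay far above all others. The log2 fold change of 1.23 ± 0.49 (2.34-fold, 95% interval 1.08 to 5.07; edgeR adjusted p = 0.222) was 0.67 when Piezo1 GOF replicate 2 was left out and 1.79 when WT replicate 1 was. The ratio of S100a11 to Anxa1 counts overlapped as well, at 0.415, 0.589 and 0.280 in Piezo1 GOF and 0.445, 0.384 and 0.356 in WT. S100a11 (ENSMUSG00000027907.4) lies at 93520488 to 93526287 of chromosome 3 on the plus strand. Of its transcript's 511 bases, 55.6% to 59.3% align to 6 processed pseudogenes at 85.6% to 99.0% identity, none of them a row of the table. How reads shared with these pseudogenes were assigned is not known, so the value of S100a11 is uncertain.

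The S100a11 promoter is shown because it holds a pair of AP-1 motifs. The motif TGANTCA, searched on both strands, was found in 6.75% of all promoter windows, and among the S100 genes in those of S100a11 (bases -136 to -130 and -38 to -32) and S100a16 (-192 to -186). The stretch at chr3:93520346-93520487 (plus strand, GRCm38.p6, RefSeq) ends at the base before the annotated gene, with the motifs in capitals. No window held the TEAD motif GGAATG (12.6% of all windows, both strands), and the C/EBP motif TTGCNNAA (9.56%, both strands) was found in that of S100a9 at -236 to -229. None of these motifs overlapped another.
S100a11: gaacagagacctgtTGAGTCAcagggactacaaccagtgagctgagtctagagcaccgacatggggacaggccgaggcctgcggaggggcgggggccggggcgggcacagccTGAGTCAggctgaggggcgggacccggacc

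S100a13, which takes part in the secretion of Fgf1 without a signal peptide, was at 21.8, 19.0 and 20.02 CPM in Piezo1 GOF replicates 1 to 3, against 10.6, 7.86 and 9.84 CPM in WT replicates 1 to 3. The groups were tight and separate, and the log2 fold change was 1.10 ± 0.24 (2.15-fold, 95% interval 1.49 to 3.11; edgeR adjusted p = 0.103). Its cargo Fgf1 was at 48.3 ± 10.7 CPM in Piezo1 GOF and 93.4 ± 15.7 CPM in WT (SD, n = 3 each), with a log2 fold change of -0.95 ± 0.24 (edgeR adjusted p = 0.122), the opposite sign. S100a16, a widely expressed member with a role in fat cell differentiation, was at 81.9, 75.2 and 72.2 CPM in Piezo1 GOF replicates 1 to 3 and 58.1, 44.6 and 55.3 CPM in WT replicates 1 to 3. Its groups were separate too, at the smaller log2 fold change of 0.54 ± 0.20 (edgeR adjusted p = 0.198). S100a16 (ENSMUSG00000074457.10) lies at 90537254 to 90543151 of chromosome 3 on the plus strand.

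S100a1, which binds the ryanodine receptor and the calcium pump of striated muscle, was the member with a negative fold change. It was at 26.9, 25.8 and 29.4 CPM in Piezo1 GOF replicates 1 to 3 and 45.6, 22.9 and 38.2 CPM in WT replicates 1 to 3. The mutant libraries lay close together inside the WT range, and the log2 fold change was -0.38 ± 0.27 (0.771-fold, 95% interval 0.507 to 1.17; edgeR adjusted p = 0.452). S100a1 did not order the libraries as the muscle markers did, since Piezo1 GOF replicate 2, with the lowest muscle sum (25423 CPM), had somewhat more S100a1 than WT replicate 2, with the highest (181856 CPM). Its muscle partner Atp2a2, the calcium pump of slow fibres, was at 1095 ± 582 CPM in Piezo1 GOF and 3891 ± 1346 CPM in WT (log2 fold change -1.83 ± 0.52; edgeR adjusted p = 0.146).

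S100a1 (ENSMUSG00000044080.9; minus strand, 90511034 to 90514392) and S100a13 (ENSMUSG00000042312.9; plus strand, 90514435 to 90524581) stand head to head on chromosome 3 with 42 bases between them in GENCODE, and their exons do not overlap. The bases between the GENCODE bounds, at chr3:90514393-90514434 (plus strand; letters from the RefSeq promoter table, GRCm38.p6), are shown because both genes are read outward from this place. RefSeq starts S100a1 farther in, with 90514331 as the base before its start, so the stretch between the RefSeq starts is longer.
S100a1 to S100a13: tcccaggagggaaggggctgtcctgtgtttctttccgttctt
Across this short stretch the fold changes had opposite signs. The ratio of S100a13 to S100a1 counts was 0.812, 0.735 and 0.680 in Piezo1 GOF replicates 1 to 3, against 0.233, 0.343 and 0.257 in WT replicates 1 to 3. The groups did not overlap, and the lowest mutant ratio lay well above the highest of WT.

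S100b, known from Schwann cells, cartilage and fat, varied more within each genotype than between them. It was at 13.7, 18.4 and 6.75 CPM in Piezo1 GOF replicates 1 to 3 and 19.9, 2.81 and 4.41 CPM in WT replicates 1 to 3. WT replicate 1 was the highest of all 6, while the other WT libraries were the lowest. The log2 fold change was 0.52 ± 0.69 (1.44-fold, 95% interval 0.489 to 4.23; edgeR adjusted p = 0.696). Without WT replicate 1 it was 1.87 ± 0.49 (edgeR adjusted p = 0.0832), and over the other libraries left out it lay between 0.0801 and 0.84. The 10 Schwann cell markers summed to 518, 591 and 462 CPM in Piezo1 GOF replicates 1 to 3 and 3736, 172 and 254 CPM in WT replicates 1 to 3. Among them Mbp, the gene of myelin basic protein, was at 26.8, 30.6 and 25.9 CPM in Piezo1 GOF replicates 1 to 3 and 1001, 11.6 and 7.13 CPM in WT replicates 1 to 3. So WT replicate 1 held far more Mbp than any other library. In S100b, however, Piezo1 GOF replicate 2 nearly matched it (18.4 against 19.9 CPM), at a Schwann cell sum of 591 against 3736 CPM. S100b thus did not follow the Schwann cell markers in every library. The part of nerve in the S100b difference was not tested beyond leaving out WT replicate 1. S100b (ENSMUSG00000033208.7) is the member outside chromosome 3, at 76253853 to 76261159 of chromosome 10 on the plus strand, and it lies within the span of the minus-strand gene Dip2a without sharing exon bases.

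S100a8 was nearly absent from WT and present at a low level in each mutant library. It had 23, 35 and 26 counts in Piezo1 GOF replicates 1 to 3, against 1, 1 and 2 counts in WT replicates 1 to 3. These are 2.99, 3.51 and 1.93 CPM in Piezo1 GOF and 0.107, 0.0639 and 0.226 CPM in WT, with a wide gap between the groups. Over pooled counts, 84 in Piezo1 GOF and 4 in WT, the ratio of levels was 22.8 (exact 95% interval 8.58 to 85.6, counting error only). The fitted log2 fold change, which depends on the prior count at such low WT values, was 4.39 ± 0.72 (edgeR adjusted p = 0.0572). S100a8 (ENSMUSG00000056054.9) lies at 90668978 to 90670035 of chromosome 3 on the plus strand. S100a9, its partner in calprotectin, had 3 counts in Piezo1 GOF replicate 1 and 0 in the other 5 libraries, where a count of 0 allows up to 0.192 to 0.339 CPM (3 counts of each library, counting error only). No fold is given for S100a9 (ENSMUSG00000056071.12; minus strand, 90692632 to 90695721 of chromosome 3), since both groups are at or under that limit.

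Of the neutrophil markers, Lcn2 and Itgam were higher in all 3 mutant libraries than in any WT library, and the others had few counts. The 12 neutrophil markers in the table summed to 69.2, 132 and 118 CPM in Piezo1 GOF replicates 1 to 3 and 24.0, 11.6 and 17.99 CPM in WT replicates 1 to 3, and 3 to 8 of them were at 0 in each Piezo1 GOF library and 4 to 7 in each WT library. Most of each sum came from Lcn2 and Itgam. Lcn2, which encodes lipocalin of neutrophil granules and of stressed epithelium and fibroblasts, was at 45.9, 119 and 82.6 CPM in Piezo1 GOF replicates 1 to 3 and 15.6, 7.86 and 5.32 CPM in WT replicates 1 to 3. The integrin gene Itgam, shared by neutrophils and macrophages, was at 18.2, 12.6 and 30.2 CPM in Piezo1 GOF and 5.16, 3.39 and 10.6 CPM in WT. The other 10 markers had 39, 10 and 68 counts together in Piezo1 GOF replicates 1 to 3 and 30, 6 and 18 in WT replicates 1 to 3, which overlap. Of these, the 8 markers Camp, Mmp8, Mpo, Ngp, Ltf, Elane, Cxcr2 and Retnlg, grouped after their values were seen, had 18, 2 and 15 counts together in Piezo1 GOF replicates 1 to 3 and 6, 1 and 6 in WT replicates 1 to 3, with at most 7 counts for any gene in a library. All 11 macrophage markers had positive fold changes, and 10 of them were separate between the genotypes. Over all tested genes 49.7% were positive, and 13.6% were higher without overlap. The 12 tenocyte markers were all positive and separate as well. Of the receptors of calprotectin, Ager was at 2.23 ± 1.01 CPM in Piezo1 GOF and 0.841 ± 0.477 CPM in WT, with groups only just apart (lowest mutant library 1.3003 CPM, highest WT library 1.2889 CPM), and Tlr4 was at 39.0 ± 2.26 CPM in Piezo1 GOF and 40.6 ± 13.6 CPM in WT. Which cells carried the S100a8 transcript was not tested.

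**Figure D2:**
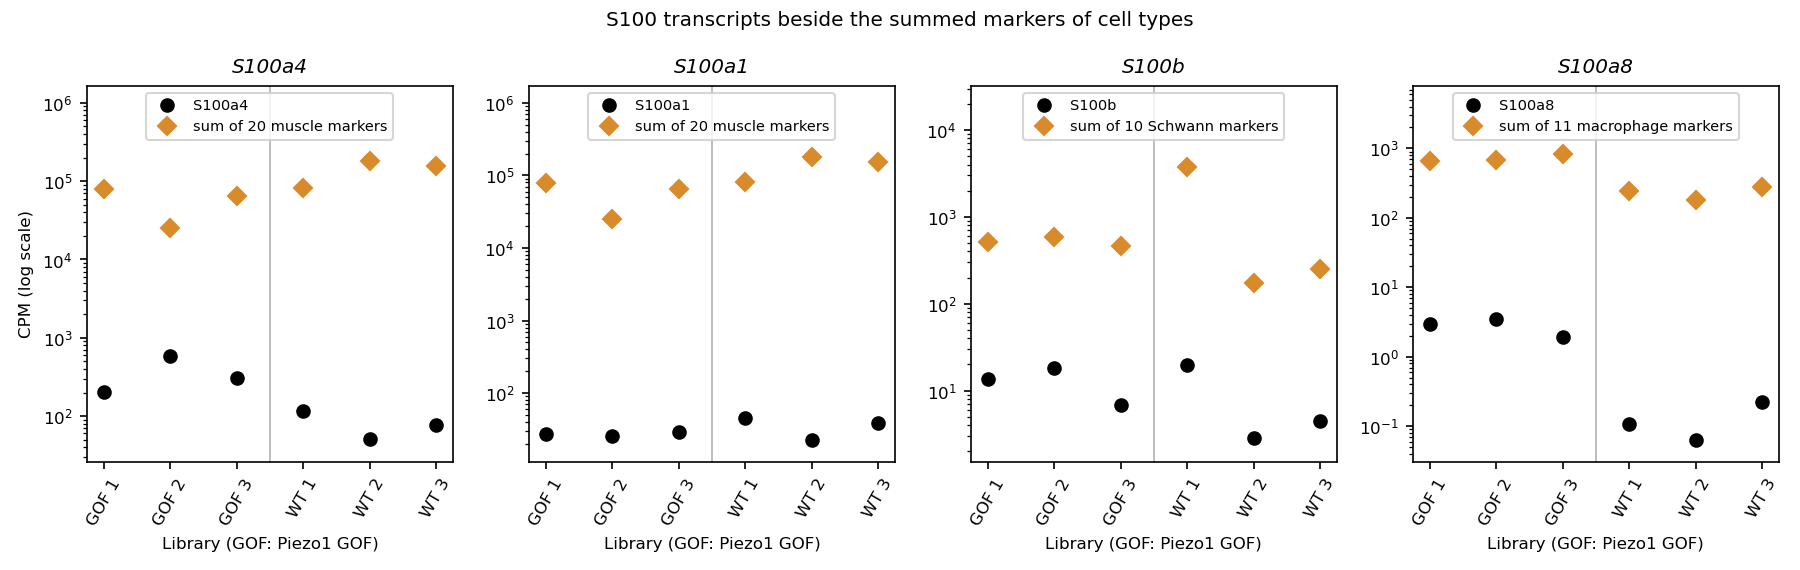
CPM on a log axis of S100a4, S100a1, S100b and S100a8 (black circles) and of the summed muscle, Schwann cell or macrophage markers (orange diamonds) in each Piezo1 GOF (left) and WT (right) library. S100a4 runs opposite to the muscle sum, and S100a1 does not follow it. WT replicate 1 tops both S100b and the Schwann cell sum at 3736 CPM, and Piezo1 GOF replicate 2 comes near it in S100b but not in the sum. The macrophage sum is higher in every mutant library.

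The muscle markers ran opposite to some of the members. S100a4, S100a6 and S100a10 each ordered the 6 libraries exactly opposite to the summed muscle markers, from Piezo1 GOF replicate 2 with the least muscle to WT replicate 2 with the most. With the mean log2 CPM of the 20 muscle markers as a covariate, the log2 fold change was 1.21 ± 0.26 for S100a4, 0.66 ± 0.21 for S100a10, 0.41 ± 0.28 for S100a6 and 0.18 ± 0.26 for S100a11. Under the same fit it was 1.06 ± 0.28 for S100a13, 3.99 ± 0.86 for S100a8 and 0.46 ± 0.22 for S100a16, close to the values without the covariate. For S100a1 it was -0.56 ± 0.31 and for S100b -0.29 ± 0.66, with the sign of S100b reversed. No S100 gene passed in this fit (edgeR adjusted p = 0.295 to 0.955), whose muscle score was 9.17 to 10.8 in Piezo1 GOF and 10.6 to 11.8 in WT and so is partly bound up with genotype. The part of muscle in these differences was not tested in any other way.

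**Figure D3:**
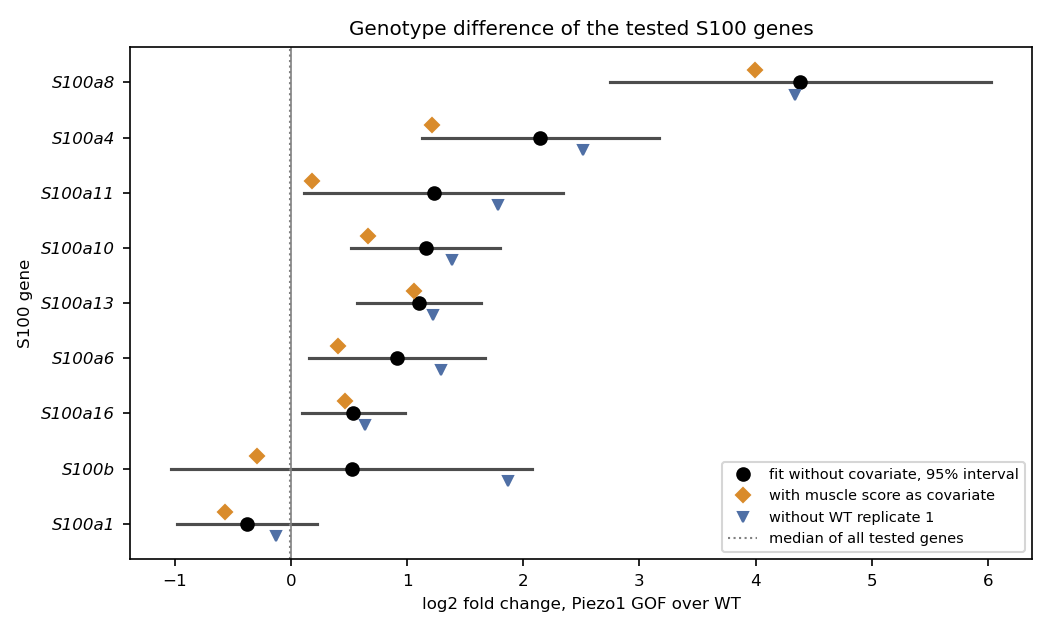
Log2 fold change of each tested S100 gene, Piezo1 GOF over WT (horizontal axis), with its 95% interval (black), with the muscle score as a covariate (orange diamonds) and without WT replicate 1 (blue triangles); the dotted line is the median of all tested genes. The covariate brings S100a11 to 0.18 and leaves S100a13 at 1.06, and S100b moves to 1.87 without WT replicate 1.

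Within the family, the mutant tendons gave a larger share to S100a4 and a smaller one to S100a1. The 10 genes together took 0.0758%, 0.159% and 0.0958% of all counts in Piezo1 GOF replicates 1 to 3 and 0.0698%, 0.0290% and 0.0385% in WT replicates 1 to 3. Of these S100 counts, S100a4 took 25.5%, 40.0% and 33.8% in Piezo1 GOF, against 18.3%, 15.99% and 18.1% in WT. The share of S100a1 was 3.36%, 1.78% and 3.28% in Piezo1 GOF, against 7.14%, 7.21% and 8.899% in WT. Neither share overlapped between the genotypes, whereas that of S100a6, at 37.6%, 31.6% and 34.1% in Piezo1 GOF and 42.6%, 42.1% and 37.4% in WT, did. A share falls when other members rise, and the CPM of S100a1 itself overlapped between the genotypes. The share of S100a10 stayed between 12.2% and 14.5% in all 6 libraries.

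**Figure D4:**
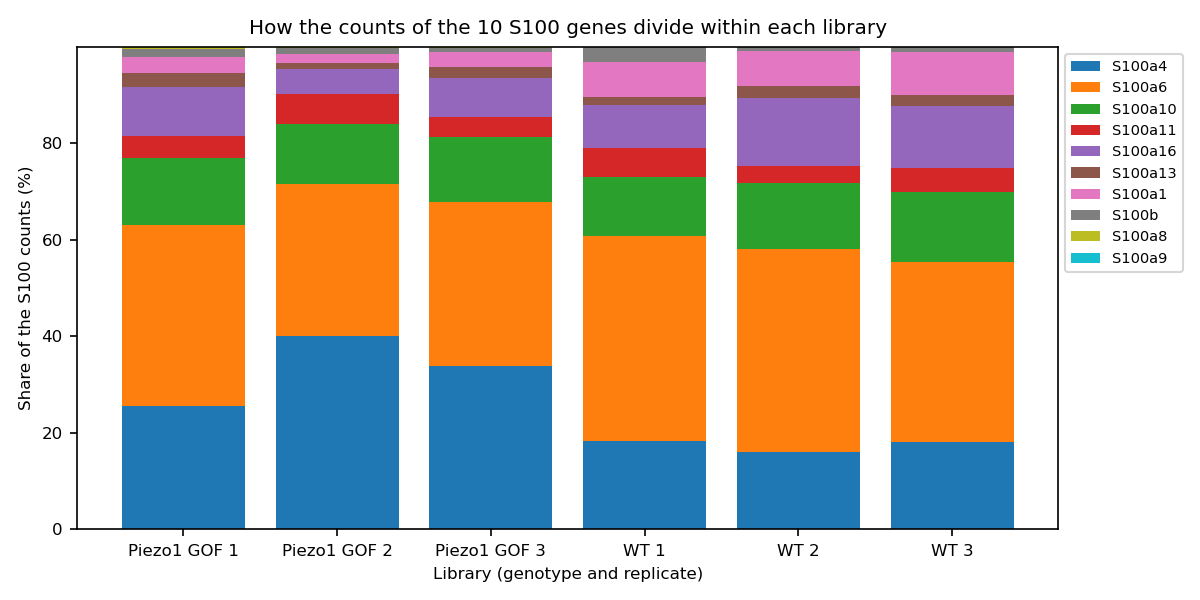
Share of the S100 counts (%) taken by each of the 10 genes in each Piezo1 GOF library (left 3 bars) and WT library (right 3 bars). The S100a4 segment is 25.5% to 40.0% in the mutant libraries and 15.99% to 18.3% in WT, and the S100a1 segment is smaller in every mutant library.

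Per length of exon sequence, S100a4 and S100a6 were the leading members in both genotypes, and their order depended on the length used. In Piezo1 GOF the levels, in CPM per kb of merged exons, were 621 ± 333 for S100a4, 259.7 ± 65.5 for S100a6, 113 ± 29.6 for S100a10, 107 ± 61.1 for S100a11, 47.3 ± 3.07 for S100a16, 39.4 ± 2.69 for S100a1, 28.4 ± 2.04 for S100a13, 8.71 ± 3.94 for S100b and 4.05 ± 1.16 for S100a8 (SD, n = 3). Neighbours in this order overlapped for S100a10 with S100a11 and for S100b with S100a8, and for no other pair. In WT the levels per kb were 140.1 ± 56.9 for S100a4, 138 ± 53.6 for S100a6, 51.3 ± 16.7 for S100a1, 50.5 ± 14.01 for S100a10, 45.9 ± 26.5 for S100a11, 32.6 ± 4.39 for S100a16, 13.2 ± 2.001 for S100a13, 6.09 ± 6.35 for S100b and 0.191 ± 0.121 for S100a8. There S100a4 and S100a6 could not be told apart, nor could S100a1, S100a10, S100a11 and S100a16 from their neighbours among these 4, nor S100a13 from S100b. Merged exons count every annotated isoform, so a gene with long alternative exons such as S100a6, with 1367 bases of merged exons for a main transcript of 731 bases, may be set too low. Per kb of that transcript, a length tried after seeing the data, S100a6 was at 412, 627 and 418 in Piezo1 GOF replicates 1 to 3 and 372, 183 and 219.6 in WT replicates 1 to 3. S100a4, with a transcript of 498 bases, was then at 410.2, 1164 and 609 in Piezo1 GOF and 235, 102 and 156 in WT. By this length S100a6 lay above S100a4 in each WT library and in Piezo1 GOF replicate 1, and the order of S100a1, S100a10, S100a11 and S100a16 in WT changed too.

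The members also differed in how alike they were over the 6 libraries. Likeness was measured as the mean absolute difference of log2 CPM after each gene was centred on its mean. S100a6 and S100a10 were the closest pair (0.15), followed by S100a10 and S100a13 (0.23), and S100a1 and S100a8 were the farthest apart (1.78). Among 10628 tested genes outside the family with a mean of at least 5 CPM, those nearest to S100a4 were Tceal3 (0.11), the lubricin gene Prg4 (0.13) and the stress-response gene Nupr1 (0.14). Prg4 was at 2193 ± 1020 CPM in Piezo1 GOF and 434 ± 156 CPM in WT. Nearest to S100a8 were the joint growth factor gene Gdf5 (0.29), the myeloid receptor gene Cd300ld (0.36) and Pcolce2, an enhancer of procollagen cleavage (0.40). With 1, 1 and 2 counts in the WT libraries, S100a8 has WT values that depend on the prior count. Its distances to other genes are limited by this. Nearest to S100a1 were Ispd (0.06), the adhesion gene Vcl (0.07) and Nudt22 (0.08), and nearest to S100b were the membrane peptidase gene Mme (0.26), Rnaset2b (0.29) and Prdm16 (0.30).

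Of the other S100 genes, S100a5 and S100g had enough counts to be tested, and neither passed. S100g, which encodes the calcium carrier of the gut and kidney known as calbindin-D9k, had 4, 81 and 20 counts in Piezo1 GOF replicates 1 to 3 and 3, 23 and 0 in WT replicates 1 to 3 (log2 fold change 2.36 ± 1.19; edgeR adjusted p = 0.301). Piezo1 GOF replicate 2 holds most of these counts and the groups overlap. Its log2 fold change was 0.70 when Piezo1 GOF replicate 2 was left out, 4.26 when WT replicate 2 was, and 0.70 with the muscle covariate. S100a5 had 48 counts in Piezo1 GOF and 41 in WT, S100a7a 15 and 10, S100a3 5 and 3, and S100a14 2 and 0. S100a2 and S100z had 0 counts in all 6 libraries.

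Among 28 partners and receptors of S100 proteins, 24 were tested and edgeR's quasi-likelihood test called 0, while 5 higher and 3 lower had p under 0.05 before adjustment, against 10.2% and 9.59% of all genes tested. The median log2 fold change was -0.16 and 8 were positive, against 49.7% of all genes. Beside Fgf1, Anxa2 and Atp2a2, the smallest p was that of Anxa5, an annexin that binds phosphatidylserine, at 447 ± 216 CPM in Piezo1 GOF and 169.9 ± 75.4 CPM in WT (log2 fold change 1.40 ± 0.43; edgeR adjusted p = 0.165). Anxa1, named here after its values were seen, had a log2 fold change of 1.11 ± 0.38 (edgeR adjusted p = 0.187). The myosin gene Myh9, partner of S100a4, was at 372 ± 54.2 CPM in Piezo1 GOF and 421 ± 57.8 CPM in WT, and Cacybp at 36.8 ± 10.5 CPM in Piezo1 GOF and 49.7 ± 13.5 CPM in WT. Both of these overlapped between the genotypes.

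Among 28 other calcium sensors and buffers with EF-hands, 25 were tested and 0 passed by edgeR's quasi-likelihood test, with a median log2 fold change of 0.45. Before adjustment 7 higher and 2 lower had p under 0.05, where 10.2% and 9.59% of all genes did, so the lower count is near the share over all genes. Tnnc1, the calcium sensor of slow muscle, was at 455 ± 199 CPM in Piezo1 GOF and 1685 ± 643 CPM in WT (log2 fold change -1.89 ± 0.45; edgeR adjusted p = 0.114). Nucb2, a calcium-binding protein of the Golgi, was at 33.2 ± 10.1 CPM in Piezo1 GOF and 9.64 ± 5.41 CPM in WT (1.80 ± 0.44; edgeR adjusted p = 0.120). The secretory-pathway protein gene Rcn3 had a log2 fold change of 1.33 ± 0.42 (edgeR adjusted p = 0.170). Sparc, which encodes a collagen-binding matrix protein, had one of 2.01 ± 0.73 (edgeR adjusted p = 0.196). All 4 were named by the size of p, and their groups did not overlap. With the muscle covariate the log2 fold change was 0.54 for Anxa5, 0.52 for Anxa1, 1.09 for Nucb2, 0.76 for Rcn3, 1.23 for Sparc and -1.11 for Atp2a2, each of them smaller in size by over 1.5 times. The other named genes of these lists moved less, to 0.95 for Anxa2, -1.30 for Tnnc1 and -0.86 for Fgf1. Tnnc1 is itself among the 20 muscle markers of the score, so part of its shift is built in. Over the partner, sensor and buffer lists and the other S100 genes together, DESeq2 called 5 higher and 3 lower of 50 tested, against 3.73% and 2.74% of all genes. The exact test of edgeR called 3 higher and 3 lower of 51, against 3.36% and 1.76%, and limma voom called 0.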

How the data were processed

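RNA-seq of Achilles tendon was read from 1 table of estimated counts per gene (expected counts, with no scaling by length or library), which the authors made with bcl2fastq, STAR, RSEM and edgeR on the mm10 build, per the submitters' processing notes, which give neither versions nor roles. Libraries were made with a RamDA-seq kit, per the labels' protocols. Annotation and strand setting: not given in the sources used here. Between 7.80% and 8.88% of values per library were not whole, and all were rounded.

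Genes were filtered with filterByExpr (minimum count 10), scaled by TMM (factors 0.897 to 1.10) and tested for genotype by the two-sided quasi-likelihood F-test of edgeR. The threshold was 0.05 after adjustment by Benjamini-Hochberg. SE is the log2 fold change over the root of F. Log2 CPM used a prior count of 2. Coordinates and exon lengths are from GENCODE mouse release M 21 on mm10, and promoters from RefSeq (GRCm38.p6). Transcript similarity was searched with BLAST 2.17.0. Motif windows were the 250 bases before each start.

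The chain was tested on simulated counts of 13466 genes, which had known changes. At the threshold it called 8% of the simulated 2-fold changes, 74% of 4-fold, 86% of 8-fold and 94% of 16-fold ones, with 8 false calls. Most changes near 2-fold were thus missed in the simulation, so a gene without a call may still differ. Replicates were compared by chi-square over genes, at 38.7 to 133 per degree of freedom, so each library was counted as its own sample. The members and lists were chosen with earlier results of these data known. Named genes were all S100 genes, the 4 list members with the smallest p, the 3 genes nearest to each of 4 members, and up to 3 leading markers of the cell types that touch a result, some of which are not reported here; others are named where a result turned on them. Alternatives were other scalings, filters and tests, a replicate block, a muscle covariate, another threshold and leaving out each library. Software was R 4.3.3, edgeR 4.0.16, limma 3.58.1, DESeq2 1.42.0 and Python 3.11.15.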

Additional observations from a re-analysis of the deposited data

How the results depend on the processing

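The count of S100 genes past the threshold was 0, and it was 2 without a filter on low counts, 4 by DESeq2, 4 by edgeR's exact test, 1 by limma voom, 2 at a threshold of 0.1 and 0 to 1 when 1 library was left out. Over all genes the count of 2 became 0 on total counts, 165 without a filter, 891 by DESeq2, 689 by the exact test, 116 by voom, 0 with the muscle covariate, 151 at a threshold of 0.1 and 0 to 228 when 1 library was left out, the highest without WT replicate 1. In the partner, sensor and other S100 lists the count of 0 became 8 by DESeq2, 6 by the exact test and 0 to 2 without 1 library. Of 162 alternative values of the 9 tested S100 genes, 149 kept their direction and side of the threshold, 12 passed it and 1 was reversed, S100b at -0.29 with the muscle covariate. S100a5 was reversed at -0.20 with that covariate, at -0.0462 without Piezo1 GOF replicate 2 and at -0.000437 without WT replicate 3, with 0.66 as its highest value when a library was left out. The cause of these shifts was not tested. With replicate number as a block, 0 S100 genes and 0 genes in all passed. Same-numbered libraries deviated from their group means with correlations of -0.21, -0.14 and -0.05, and Piezo1 GOF replicate 1 was closest to WT replicate 2 (0.17). With 3 libraries per group these values cannot decide whether the samples were paired, which the labels do not state. S100a8 and S100a9 are limited by their counts.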
